A study of Homo sapiens with 4 samples.

Results

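The 8 genes described here encode 4 caspases (CASP2, CASP6, CASP8 and CASP9), the apoptosome scaffold APAF1, and 3 inhibitors of caspase activation (XIAP, BIRC2 and CFLAR). They were taken by symbol from a table of 40205 genes, all 8 were found, and all 8 passed the filter on low values (1 RPKM or more in any library). RPKM is a read count scaled to the length of the gene model and to the size of the library. The libraries were poly(A) RNA from U87MG and U251, 2 human glioblastoma cell lines. In each line, cells with a lentiviral hairpin against the splicing factor SRSF1 (KD) were set against cells with the control hairpin sh-NC, which the labels call WT. Both hairpins were delivered at a multiplicity of infection of 20, and the cells were kept as puromycin-selected populations after 1 week of selection. There was 1 library per line and arm, 4 in all, so the only replication of the knockdown is that between the 2 lines, and values within 1 line stand without a replicate.

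Caspases are proteases that lie inactive as zymogens and cut their substrates after aspartate. Initiator caspases are activated by being brought together on a platform: caspase-8 at death receptors through the adaptor FADD, caspase-9 on the apoptosome that APAF1 forms with cytochrome c, and caspase-2 on the PIDDosome. Initiators then cleave executioner caspases, and inhibitor of apoptosis (IAP) proteins and c-FLIP, the product of CFLAR, hold these steps back. Glioblastoma cells are known for resisting death signals even when they express the receptors and caspases.

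CASP2 makes mRNAs with and without an alternative exon, and CASP9 makes mRNAs with and without an internal block of exons. SRSF1 has been reported in other cells to act on both choices. The values here are sums over a whole gene, so they do not separate these forms. The junctions that would separate them are shown to make that limit concrete, from GENCODE 29 transcripts on GRCh38, with the last 15 bases of the shared upstream exon in lower case and the first 15 bases of the next exon in capitals.
CASP2 with the alternative exon: aggcctgccgtggagGTGCTATTGGATCCC
CASP2 without it: aggcctgccgtggagATGAGACTGATCGTG
CASP9 with the internal exons: gatttggtgatgtcgGTGCTCTTGAGAGTT
CASP9 without them: gatttggtgatgtcgAGCAGAAAGACCATG
The CASP2 exon has 61 bases at chr7:143300380-143300440 on the forward strand. The CASP9 block has 4 exons with 450 bases together, within chr1:15504611-15507907 on the reverse strand. On the same build, CASP2 lies at chr7:143288215-143307696, CASP9 at chr1:15490832-15526534, CASP6 at chr4:109688622-109703583, APAF1 at chr12:98645141-98735433, XIAP at chrX:123859724-123913979 and BIRC2 at chr11:102347211-102378670. CASP8 at chr2:201233443-201287711 and CFLAR at chr2:201116104-201176687 both lie on the forward strand of the same chromosome. A read that does not cross such a junction or fall in these exons counts alike for either form.

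The libraries were read to similar depth, between 25099799 and 27953878 reads as recovered from the steps of the RPKM values. SRSF1 stood at 14.6 RPKM in U87MG KD against 88.3 in U87MG WT, and at 15.8 RPKM in U251 KD against 109 in U251 WT, so the targeted gene was lower in both libraries labelled KD (limma, log2 ratio -2.62 ± 0.16 SE, adjusted p = 0.00217, n = 2 libraries per arm). On GRCh38, 59.4% of the 31-base words of SRSF1 also occur in the overlapping annotation AC015813.2. Of the glioma markers, VIM lay between 1065 and 1675 RPKM and CD44 between 124 and 184 RPKM in all 4 libraries. NES and SOX2 were at 61.1 to 83.7 and 47.9 to 49.3 RPKM in U251 but at 1.29 to 1.79 and 0.0460 to 0.121 RPKM in U87MG. GFAP reached at most 1.47 RPKM, S100B at most 0.0946 RPKM and OLIG2 at most 2.46 RPKM, and AQP4 was at 0. The astrocyte markers S100B and AQP4 were thus absent or near absent, GFAP was above 1 RPKM in U251 WT only, and OLIG2 was low, at 2.46 RPKM in U87MG KD against 0.936 in U87MG WT, and near 0 in U251. The summed RPKM of 3 immune markers was 0.162 to 0.307 and that of 3 endothelial markers 0.133 to 0.498. The sum of 3 neuronal markers was 4.56 to 8.45 RPKM, with RBFOX3 at 0 in all 4 libraries, and that of 3 epithelial markers was 1.61 to 5.88 RPKM, mostly KRT8. The sum of 3 oligodendrocyte markers was 2.16 RPKM in U87MG KD against 1.73 in U87MG WT, nearly all of it MBP, and at most 0.0301 RPKM in U251, with MOG at 0 throughout. The part of such cells in the results was not tested. In such bulk RNA, fewer cells that express a gene and less RNA per cell cannot be told apart.

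The 4 caspases stood lower in the KD library than in its control in both lines, and so did APAF1, while the inhibitors showed no shared direction: XIAP stood higher in U87MG, and BIRC2 and CFLAR differed by little in either line. None of these differences passed the test over all genes. In the fit blocked on cell line, limma called 0 of the 8 genes at an adjusted p under 0.05, against 3.76% of the 16098 genes tested, 2.61% of them lower and 1.16% higher in KD. At an unadjusted p under 0.05, 3 of the 8 genes (CASP2, CASP8 and CASP6) were lower and 0 higher, against 21.1% of all genes in either direction and 12.8% lower. All 3 kept this with a pseudocount of 0.1, with 3561 of 16098 genes, 2175 of them lower. Among genes with a mean RPKM of at least 5, only 4 members were tested. There CASP2 and CASP8 kept it, with 2335 of 9314 genes (1356 lower). Only CASP2 kept it after trimmed-mean rescaling (3377 of 16098 genes, 1696 lower) and after quantile normalization (3624 of 16098, 1857 lower). CASP2 alone also kept it without the filter (3124 of 27973, 1890 lower). Without the block for cell line, 0 of the 8 did, with 262 of 16098 genes (183 lower). The number of genes called over the whole table was 420 lower and 186 higher, and after trimmed-mean rescaling it was 52 lower and 48 higher. No member was 2-fold different in either line, against 5.91% of genes in U87MG (3.58% lower, 2.33% higher) and 2.88% in U251 (1.71% lower, 1.17% higher). KD was below WT for 6 of the 8 in U87MG, against 55.5% of all genes, and for 6 of the 8 in U251, against 50.5%. It was below WT in both lines for 5 of the 8, against 36.5% of all genes. The median log2 ratio of the 8 was -0.16 in U87MG and -0.25 in U251, beside -0.05 and -0.0037 over all genes tested.

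**Figure D1:**
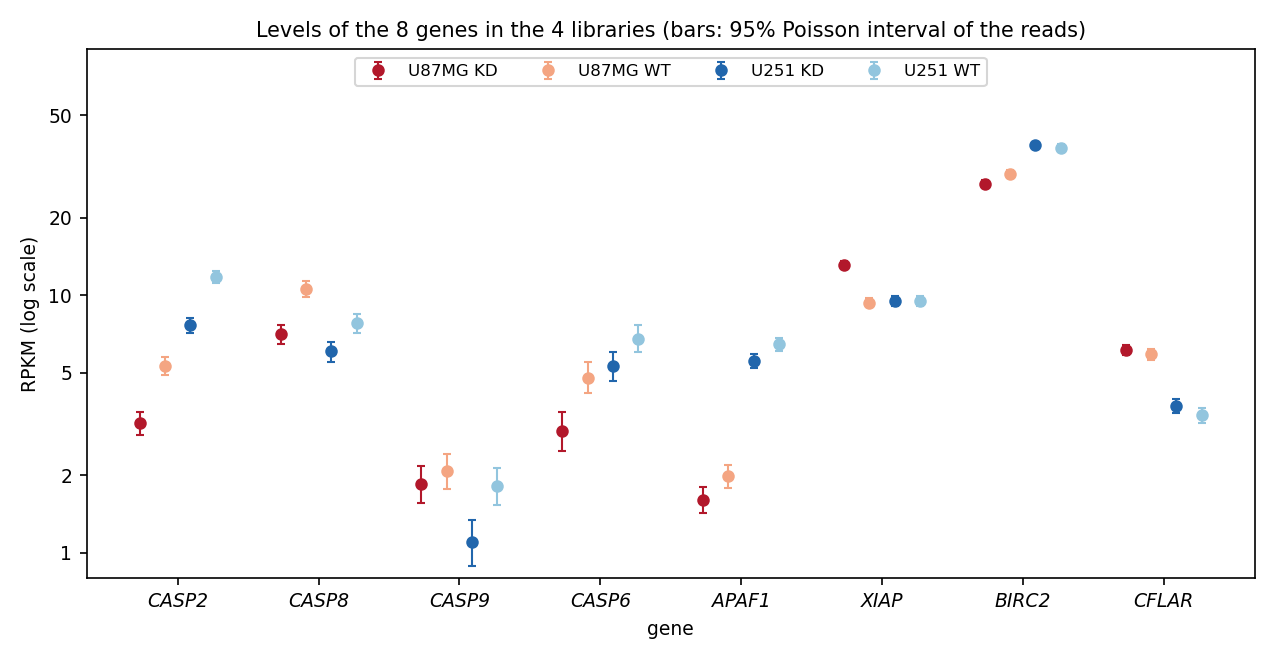
RPKM (log axis) of the 8 genes in each of the 4 libraries, with KD left of WT in each line and bars for the 95% Poisson interval of the reads behind the value. CASP2, CASP8, CASP9, CASP6 and APAF1 lie lower in KD than in WT in both lines, and BIRC2 is the highest of the 8 in every library.

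Among the initiator caspases, CASP2, the caspase of the PIDDosome, had the largest estimated difference of the 8 genes. It stood at 3.18 RPKM in U87MG KD against 5.30 in U87MG WT, and at 7.64 RPKM in U251 KD against 11.8 in U251 WT. Both KD libraries were thus below the control of their own line, although U251 KD lay above U87MG WT. By reads, CASP2 in KD was 0.600 times WT in U87MG, with an exact 95% Clopper-Pearson interval of 0.524 to 0.686, and 0.649 times WT in U251, with an interval of 0.595 to 0.708. Such intervals cover counting error only, and these rest on 349 and 589 reads in U87MG KD and WT and on 902 and 1247 reads in U251 KD and WT. Across lines the log2 ratio of (RPKM + 1) was -0.58 ± 0.16 (SE, 95% interval -0.95 to -0.20), which did not pass the adjustment (adjusted p = 0.0972 by limma). Of all genes tested, 7.62% had a more negative estimate.

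CASP8, the initiator caspase of death receptors, was at 7.06 RPKM in U87MG KD against 10.6 in U87MG WT. In U251 it was at 6.05 RPKM in KD against 7.78 in WT. Both KD libraries lay below both WT libraries. CASP8 in KD was 0.668 times that of WT in U87MG (95% interval 0.598 to 0.745) and 0.777 times in U251 (0.688 to 0.878). The estimate across lines was -0.42 ± 0.17 on the log2 scale (95% interval -0.80 to -0.04, adjusted p = 0.202 by limma).

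CASP9, the initiator caspase of the apoptosome, was the least abundant of the 4 caspases in every library. It was at 1.85 RPKM in U87MG KD against 2.08 in U87MG WT, and at 1.10 RPKM in U251 KD against 1.81 in U251 WT. The arms of U87MG could not be told apart at this depth, with 149 reads in KD and 169 in WT (KD level 0.893 times WT, 95% interval 0.711 to 1.12). In U251 the KD level was 0.605 times WT (0.461 to 0.790), from 95 reads in KD and 141 in WT. Across lines limma gave -0.27 ± 0.20 (95% interval -0.72 to 0.19, adjusted p = 0.479).

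CASP6, an executioner caspase that cuts nuclear lamins, had 2.97 RPKM in U87MG KD against 4.78 in U87MG WT. Its level was 5.30 RPKM in U251 KD against 6.79 in U251 WT. CASP6 in KD was 0.620 times WT in U87MG (95% interval 0.494 to 0.776) and 0.781 times in U251 (0.655 to 0.929), so each interval lies below no change. The estimate was -0.43 ± 0.17 (95% interval -0.82 to -0.03, adjusted p = 0.204 by limma). On GRCh38, 5.40% of the exonic bases of CASP6 overlap MCUB on the opposite strand, and no strand setting is given in the sources used here. MCUB was at 19.2 RPKM in U87MG KD against 24.7 in U87MG WT and at 18.3 RPKM in U251 KD against 33.0 in U251 WT, and its part in the CASP6 values was not tested.

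APAF1, the scaffold that assembles caspase-9, differed little between the arms. It had 1.61 RPKM in U87MG KD against 1.98 in U87MG WT, and 5.56 RPKM in U251 KD against 6.45 in U251 WT. APAF1 in KD was 0.810 times WT in U87MG (95% interval 0.694 to 0.945) and 0.862 times in U251 (0.793 to 0.936). limma gave -0.19 ± 0.17 (95% interval -0.58 to 0.20, adjusted p = 0.561). The gap between the lines was larger than the gap between the arms.

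**Figure D2:**
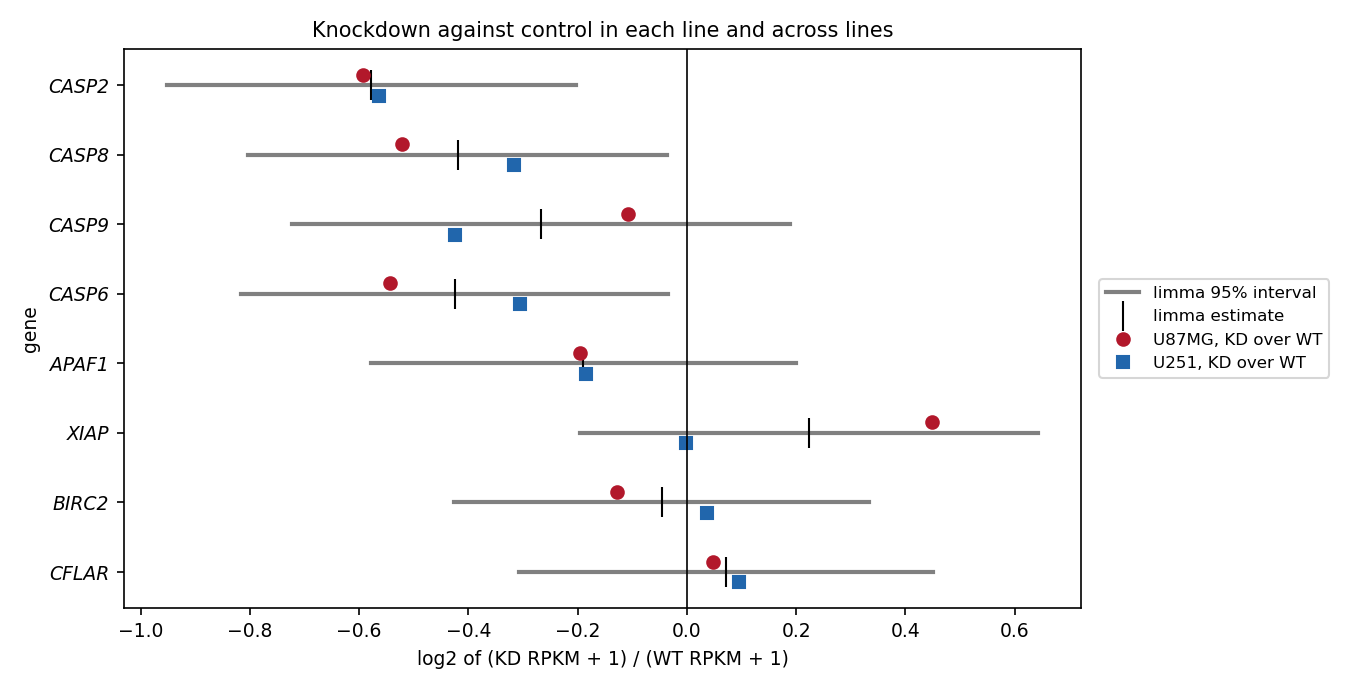
Log2 ratio of KD over WT for each of the 8 genes in U87MG (circles) and in U251 (squares), with the limma estimate across lines (tick) and its 95% interval (grey bar). The intervals of CASP2, CASP8 and CASP6 lie below 0, while the other 5 intervals include 0, and no gene passes adjustment over all genes.

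Of the inhibitors, XIAP binds and blocks caspase-9 and some executioner caspases, though not caspase-6. It stood at 13.1 RPKM in U87MG KD against 9.35 in U87MG WT, the highest value of this gene in the 4 libraries, and at 9.48 RPKM in U251 KD against 9.50 in U251 WT. XIAP in KD was 1.40 times WT in U87MG (95% interval 1.33 to 1.49) and 0.998 times in U251 (0.939 to 1.06). limma gave 0.22 ± 0.18 across lines (95% interval -0.20 to 0.64, adjusted p = 0.521), and the difference between the lines was not tested.

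BIRC2 encodes cIAP1, a ubiquitin ligase that acts on the RIPK1 kinase at tumour necrosis factor receptors. It was the most abundant of the 8 genes, at 27.0 RPKM in U87MG KD against 29.6 in U87MG WT and 38.2 RPKM in U251 KD against 37.3 in U251 WT. BIRC2 in KD was 0.912 times WT in U87MG (95% interval 0.867 to 0.960) and 1.03 times in U251 (0.982 to 1.07). Across lines the estimate was -0.05 ± 0.16 (95% interval -0.43 to 0.33, adjusted p = 0.906 by limma), and it turned to 0.01 after trimmed-mean rescaling.

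CFLAR encodes c-FLIP, a relative of caspase-8 without protease activity that takes its place at death receptors. It was at 6.12 RPKM in U87MG KD against 5.89 in U87MG WT, and at 3.72 RPKM in U251 KD against 3.41 in U251 WT. CFLAR in KD was 1.04 times WT in U87MG (95% interval 0.972 to 1.11) and 1.09 times in U251 (0.998 to 1.19). limma gave 0.07 ± 0.16 (95% interval -0.31 to 0.45, adjusted p = 0.843). CFLAR overlaps CFLAR-AS1 on the opposite strand over 3.45% of its exonic bases and the pseudogene IMPDH1P10 over 6.60%. IMPDH1P10 was at 4.07 RPKM in U87MG KD against 1.56 in U87MG WT and at 0.627 RPKM in U251 KD against 0.134 in U251 WT. CFLAR-AS1 was at 2.18 RPKM in U87MG KD against 0.950 in U87MG WT and at 0.481 RPKM in U251 KD against 0.153 in U251 WT, and the part of either in the CFLAR values was not tested.

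Ratios between an enzyme and its inhibitor were chosen after the values were seen and have no test. There were 1.15 CASP8 per CFLAR (ratio of RPKM) in U87MG KD against 1.79 in U87MG WT, and 1.63 in U251 KD against 2.28 in U251 WT. XIAP was 7.09 times CASP9 in U87MG KD against 4.51 times in U87MG WT, and 8.64 times in U251 KD against 5.24 times in U251 WT. For these pairs, the inhibitor stood higher per caspase mRNA in the KD library of each line. The read-ratio interval of CFLAR itself included 1 in both lines. In U251, XIAP was 0.998 times WT, and CASP9 rests on 95 reads in KD and 141 in WT. The other IAP genes below were not set against a caspase.

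Per length, the order of the 8 genes differed between the lines more than between the arms. BIRC2 came first in all 4 libraries. In U87MG, APAF1 and CASP9 came last in both arms with overlapping Poisson intervals, and so did CASP2 and CASP6 just above them. CASP9 alone came last in both U251 libraries, below CFLAR, with intervals that did not overlap. APAF1 and CASP6 were neighbours with overlapping intervals in both U251 libraries, where APAF1 was at 5.56 RPKM in KD and 6.45 in WT. XIAP came second in both KD libraries, while CASP8 came second in U87MG WT and CASP2 in U251 WT.

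The lines were compared in the same fit with the arm as a covariate. U87MG was lower than U251 for APAF1 (log2 difference -1.33 ± 0.17 SE, adjusted p = 0.000556 by limma, n = 2 libraries per line), CASP2 (-1.03 ± 0.16, adjusted p = 0.00156) and CASP6 (-0.55 ± 0.17, adjusted p = 0.0287), and higher for CFLAR (0.62 ± 0.16, adjusted p = 0.0158). Thus 4 of the 8 genes were called, 3 lower and 1 higher in U87MG, against 48.6% of all genes, 27.0% lower and 21.6% higher, a share near that of the table. APAF1 in U87MG was 0.289 times its U251 level between the KD libraries (interval 0.254 to 0.329) and 0.307 times between the WT libraries (0.273 to 0.346). CASP2 in U87MG was at 0.416 times its U251 level in KD (0.367 to 0.472) and 0.451 times in WT (0.408 to 0.498). CFLAR in U87MG was at 1.65 times its U251 level in KD (1.53 to 1.78) and 1.73 times in WT (1.59 to 1.87). These 3 genes kept nearly the same distance between the lines in either arm. CASP6 in U87MG was at 0.560 times its U251 level in KD (0.449 to 0.696) and 0.705 times in WT (0.587 to 0.846). In this fit the residual is the change of that distance between the arms, so a steady distance is no separate support for the calls. BIRC2 was lower in U87MG by a log2 difference of -0.40 ± 0.16 that did not pass (adjusted p = 0.0743), and CASP8, CASP9 and XIAP had differences of 0.30, 0.29 and 0.21 with adjusted p of 0.172, 0.260 and 0.373. Without the term for the arm, APAF1 alone was called (adjusted p = 0.00962, against 0.0616 for CASP2, 0.0579 for CFLAR and 0.178 for CASP6). CASP6 also missed the threshold after quantile normalization (adjusted p = 0.0507), where BIRC2 passed it (0.0477).

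**Figure D3:**
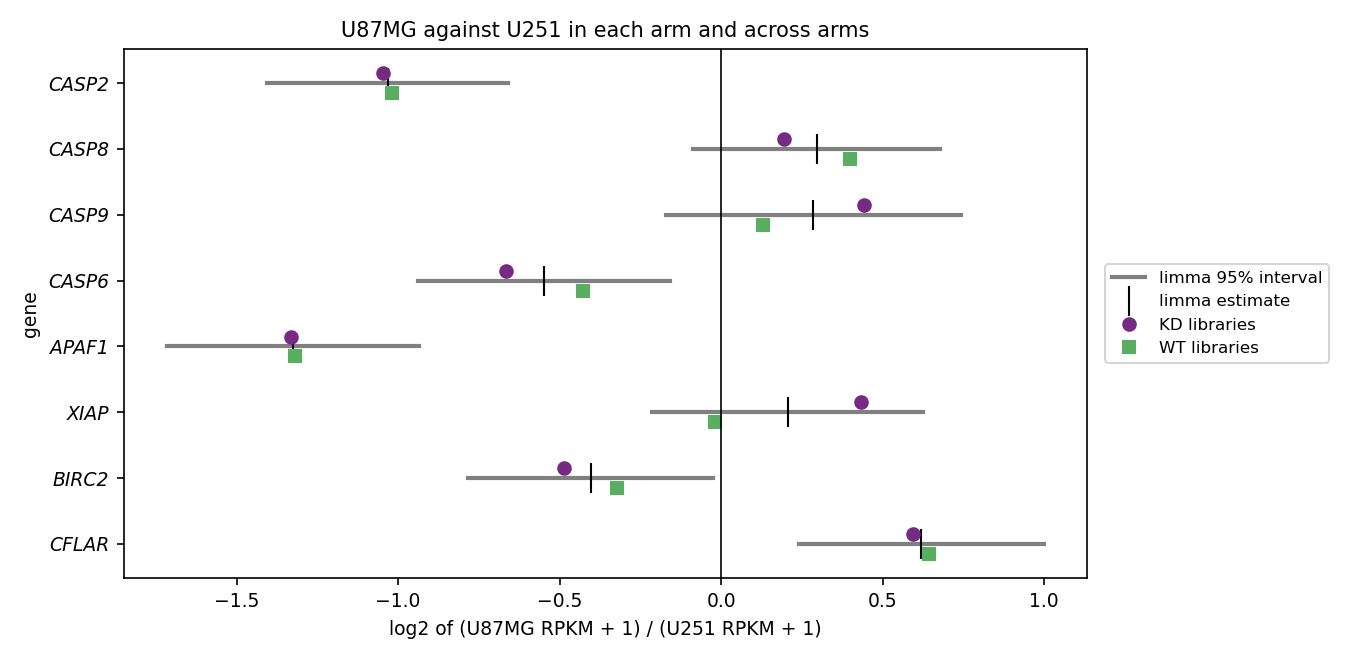
Log2 ratio of U87MG over U251 for each of the 8 genes between the KD libraries (circles) and between the WT libraries (squares), with the limma estimate across arms (tick) and its 95% interval (grey bar). APAF1 and CASP2 lie more than 1 log2 unit below 0 in both arms, and CFLAR lies above 0.

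CASP2 had the largest mean ratio between the arms and APAF1 the largest difference between the lines, and for these 2 genes the most similar profiles over the 4 libraries were found by the distance between log2 profiles centred on their means, among 9314 genes with a mean RPKM of at least 5. Closest to CASP2 were SKIL, GPD1L, ACADM and SERTAD4-AS1, with distances of 0.03 to 0.07 log2 units. SKIL, for example, was at 5.57 RPKM in U87MG KD against 8.98 in U87MG WT and at 12.9 RPKM in U251 KD against 19.1 in U251 WT. Closest to APAF1 were ZNF644, CAAP1, TSEN15 and TSPAN6, with distances of 0.08 to 0.09. These likenesses rest on only 4 libraries and are descriptions.

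Of the caspases outside the 8 genes, the inflammatory ones CASP1 and CASP4 are described here. CASP1, the caspase that processes interleukin-1 beta, fell: it was at 2.45 RPKM in U87MG KD against 6.19 in U87MG WT and at 1.87 RPKM in U251 KD against 6.96 in U251 WT (limma, -1.27 ± 0.18, adjusted p = 0.0196). Both KD libraries lay below both WT libraries. A share of 9.28% of its 31-base words also occurs in the neighbouring CARD16. After trimmed-mean rescaling CASP1 did not pass (adjusted p = 0.0514). CASP4, which senses intracellular lipopolysaccharide, was at 61.1 RPKM in U87MG KD against 45.2 in U87MG WT and at 41.6 RPKM in U251 KD against 33.5 in U251 WT. Its log2 ratios of KD over WT, each on the (RPKM + 1) scale, came to 0.43 in U87MG and 0.30 in U251, and it was not called (limma, 0.37 ± 0.16, adjusted p = 0.245). The untested genes CASP10, CASP12 and CASP14 are named after their values were seen. CASP12 and CASP14 were listed at 0 in all 4 libraries, and CASP10 reached at most 0.457 RPKM.

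**Figure D4:**
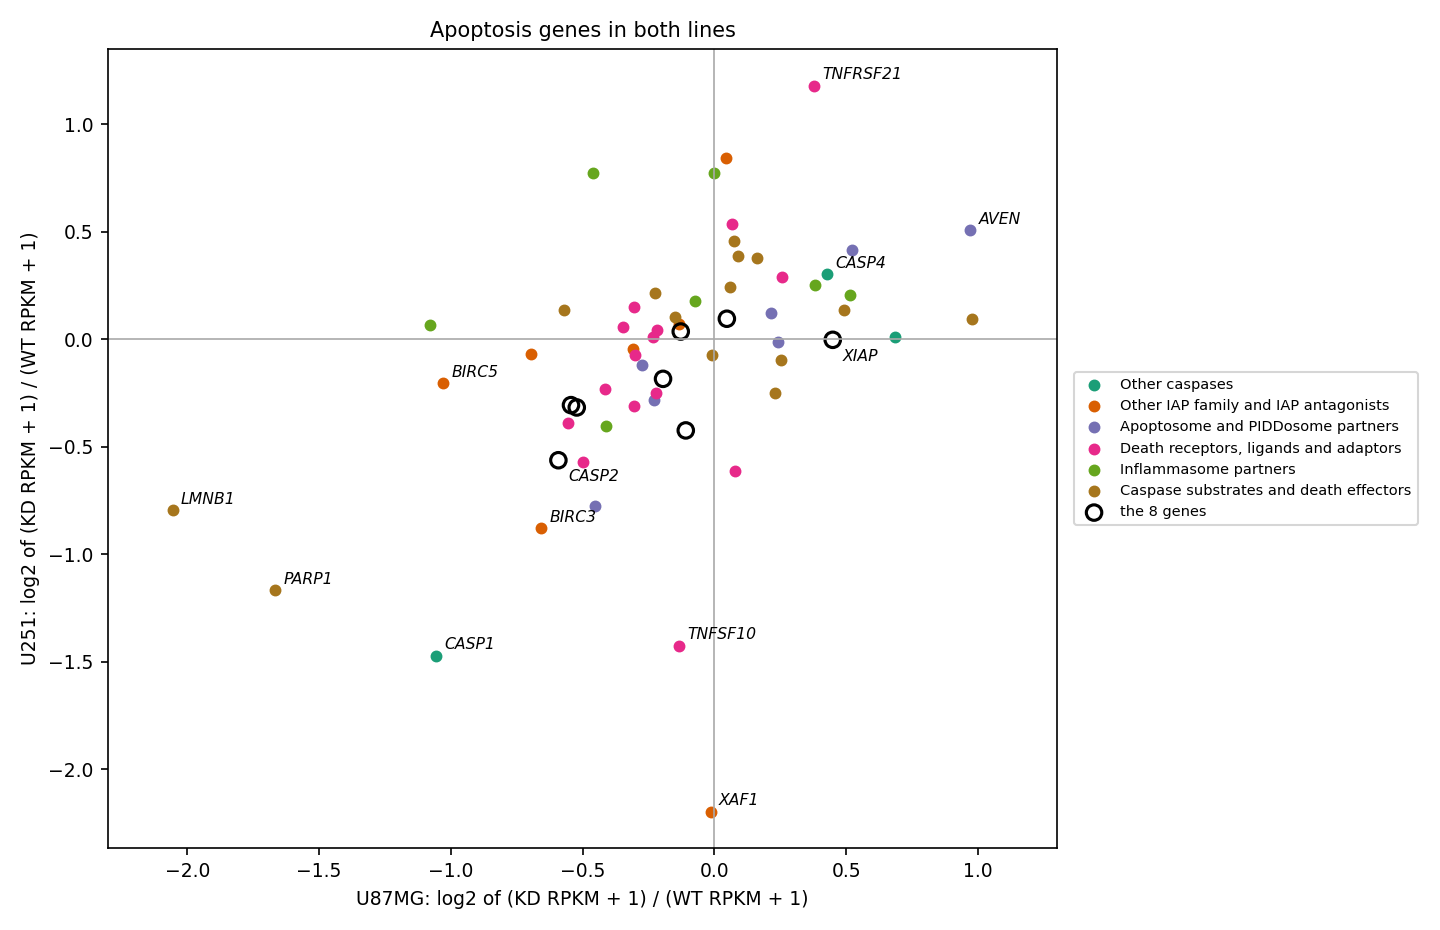
Log2 ratio of KD over WT in U87MG (x axis) against that in U251 (y axis) for tested genes of the 6 other apoptosis lists (filled, by list) and for the 8 genes (open circles). LMNB1, PARP1 and CASP1 lie far below 0 in both lines, XAF1 and TNFSF10 in U251 only, and the 8 genes lie between -0.59 and 0.45 on the x axis.

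Among the other IAP family genes and IAP antagonists, 7 of 10 in the table were tested. Of these, 1 was called lower and 0 higher, against 2.61% and 1.16% of all genes. BIRC3 encodes cIAP2 and lies beside BIRC2 on chromosome 11. It fell to 6.92 RPKM in U87MG KD, against 11.5 in U87MG WT, and to 4.07 RPKM in U251 KD, against 8.32 in U251 WT (limma, -0.77 ± 0.17, adjusted p = 0.0494). That call is at the edge of the threshold and was lost after trimmed-mean rescaling (adjusted p = 0.0897) and with a pseudocount of 0.1 (0.0525). BIRC5, the mitotic protein survivin, was at 21.4 RPKM in U87MG KD against 44.7 in U87MG WT, and at 36.1 RPKM in U251 KD against 41.8 in U251 WT. XAF1, an interferon-induced antagonist of XIAP, was near 0 in U87MG and was at 0.989 RPKM in U251 KD against 8.12 in U251 WT. On GRCh38, 38.3% of the exonic bases of XAF1 overlap PRAL, and the part of PRAL in the XAF1 values was not tested. SEPT4 was at 7.38 RPKM in U251 KD against 3.67 in U251 WT and at most 0.146 RPKM in U87MG. The medians were -0.31 in U87MG and -0.07 in U251, beside -0.05 and -0.0037 over all genes tested.

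Of the 7 tested partners of the apoptosome and the PIDDosome, 0 were called, against 3.76% of all genes. The medians were 0.21 (U87MG) and -0.01 (U251). Cytochrome c (CYCS), which triggers APAF1 assembly, had ratios of 0.52 (U87MG) and 0.42 (U251), and AVEN, which binds APAF1 and holds it back, had ratios of 0.97 and 0.51 (limma, 0.74 ± 0.18, adjusted p = 0.0703). PIDD, the scaffold that recruits caspase-2, was at 0.756 RPKM in U87MG KD against 1.41 in U87MG WT and at 0.898 RPKM in U251 KD against 2.25 in U251 WT. PPP1R13B had ratios of -0.23 and -0.28. AVEN passed after quantile normalization (adjusted p = 0.0413 by limma) and among genes with a mean RPKM of at least 5 (0.0365).

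Among death receptors, their ligands and adaptors, 15 of 20 were tested and 0 were called, against 3.76% of all genes. The medians were -0.23 (U87MG) and -0.07 (U251). FAS, the receptor that recruits caspase-8 through FADD, was at 10.1 RPKM in U87MG KD against 14.7 in U87MG WT, and at 5.15 RPKM in U251 KD against 8.13 in U251 WT. RIPK1, the kinase at tumour necrosis factor receptors, had ratios of -0.56 and -0.39. TNFRSF21, known as death receptor 6, had ratios of 0.38 for U87MG and 1.18 for U251. TNFSF10, which encodes the ligand TRAIL, was at 3.66 RPKM in U251 KD against 11.5 in U251 WT, while U87MG held at most 0.0973 RPKM.

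The inflammasome list, with 7 of 11 genes tested, likewise held 0 calls, against 3.76% of all genes (medians -0.07 in U87MG and 0.21 in U251). GSDMD, the pore protein of pyroptosis, had ratios of -0.41 and -0.40. IL18, a substrate of caspase-1, was at 39.9 RPKM in U251 KD against 22.9 in U251 WT and listed at 0 in U87MG. AIM2, a sensor of cytosolic DNA, was at 8.74 RPKM in U87MG KD against 5.82 in U87MG WT and at most 0.179 RPKM in U251. PYCARD, the adaptor that links such sensors to caspase-1, was listed at 0 in all 4 libraries and is named after its values were seen.

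Substrates of caspases and effectors of cell death held 2 calls, both lower, among 14 genes tested of 15 in the table. Of all genes, 2.61% were called lower. After trimmed-mean rescaling the list held 1 call, with 52 of 16098 genes called lower and 48 higher. PARP1, a DNA repair enzyme that executioner caspases cleave, fell to 32.2 RPKM in U87MG KD, against 105 in U87MG WT, and to 29.4 RPKM in U251 KD, against 67.2 in U251 WT (limma, -1.42 ± 0.18, adjusted p = 0.0154). LMNB1, the lamin B1 gene, fell to 9.83 RPKM in U87MG KD, against 44.0 in U87MG WT, and to 89.4 RPKM in U251 KD, against 156 in U251 WT (limma, -1.43 ± 0.28, adjusted p = 0.0384, and 0.0796 after trimmed-mean rescaling). DFNA5, a gasdermin, had 0.98 for U87MG and 0.10 for U251, and BID, the caspase-8 substrate that passes the signal to mitochondria, had 0.49 and 0.14. The medians of this list were 0.07 in U87MG and 0.12 in U251.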

How the data were processed

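The authors deposited RPKM values per gene for 4 libraries, already scaled to gene length and library size. Alignment used Bowtie 0.12.2 with hg19, per the submitters' processing notes. For the counting program, annotation and strand setting, nothing is given in the sources used here. All columns of values were used. Whole reads were recovered from the RPKM steps, with library totals taken from small RNA genes of known length. They came out whole within 0.01 reads for 99.9% of 19931 rows above 0 in every library, taking each time the smallest length of gene model, up to 40000 bases, that worked, against 0.8% of 500 randomly rescaled rows. A longer model would give a multiple of these reads. For a ratio of 2 libraries, the 95% counting interval is the Clopper-Pearson interval of 1 library's share of their reads, scaled by depth, and for a level it is the Poisson interval. Reads without molecular identifiers are not independent molecules, so the intervals cover counting error only.

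limma 3.58.1 in R 4.3.3 was fitted to log2(RPKM + 1), for the 16098 genes that reached 1 RPKM in any library. The model had terms for cell line and arm, an intensity trend in eBayes, two-sided p-values and Benjamini-Hochberg adjustment over all genes. Fold changes on this scale understate those of low genes. The pairing comes from the cell line: KD and WT of 1 line share that line. It leaves 1 residual degree of freedom, so the test leans on the spread shared across genes. No source says that libraries came from separate cultures, so each p-value measures the spread between these 4 libraries only. The residual of a gene is how far its KD ratio differs between the 2 lines. It holds technical spread and any response particular to a line, and these cannot be told apart. The interaction of line and arm has no residual degree of freedom and was not tested. The fit was first tested on simulated data with 15650 genes. It called 92 of 100 genes set 2-fold apart between the arms and 100 of 100 set 4-fold apart. It also called 56 of 15450 genes set with no difference. These false calls were a larger share of all calls than the adjustment is meant to allow. Calls may thus be less secure than their adjusted p states. Beyond counting error, the spread between the simulated libraries was set alike for all genes and was not estimated from these data. How far the share of false calls carries over to these data was not tested.

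The 8 members and the other lists were chosen with earlier results of these data known. Named were all members, SRSF1, and from each list every called gene, then those with the largest absolute mean ratio, up to 4. Some genes that this rule names are not reported here. Names were matched by symbol or RefSeq synonym. ARTS and LRDD, other names for products of genes in the lists, were not matched separately. Gene positions, overlaps, 31-base words and transcript sequences are from GENCODE 29 on GRCh38, and none were converted from hg19. Alternatives were a pseudocount of 0.1, no filter, a mean RPKM of at least 5, trimmed-mean rescaling, quantile normalization, no block or arm term, and each line or arm alone. Other computation used matplotlib 3.10.9, scipy 1.17.1, pandas 2.3.3 and numpy 2.4.6 under Python 3.11.15.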

Additional observations from a re-analysis of the deposited data

Results flagged for a closer look

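Among the 8 genes and those singled out from the other lists, there were 3 for which the KD library lay above its control in 1 line and below it in the other. With 1 library per line and arm this difference was not tested. XIAP had a log2 ratio of 0.45 in U87MG and -0.0024 in U251, a difference of 0.45 (U87MG minus U251), and the U251 value is close to no change. BIRC2 had ratios of -0.13 and 0.04, a difference of -0.16, with read-ratio intervals that lay below 1 in U87MG and included 1 in U251. NLRP3, an inflammasome sensor, was at 1.09 RPKM in U87MG KD against 3.41 in U87MG WT, and at 0.0466 RPKM in U251 KD against a listed 0 in U251 WT, a difference of -1.14 in which the U251 side rests on 6 reads in KD.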

How the results depend on the processing

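The call of 0 members between KD and WT held under every alternative run. Without the filter and without the block no gene at all was called, so those runs could not have called a member. At a mean RPKM of at least 5, only 4 members were tested. The estimates of the members kept their direction too, except BIRC2 and XIAP. BIRC2 had 0.0139 after trimmed-mean rescaling and 0.0363 without U87MG, and XIAP had -0.0024 without U87MG. Without the replicate block, CASP2 had an adjusted p of 0.9998 by limma. Genes called between KD and WT (606 in all) came to 0 without the filter (3124 at an unadjusted p under 0.05) and 0 without the replicate block for cell line (262 unadjusted), so no call, that of SRSF1 included, held under either, and to 100 after trimmed-mean rescaling, 52 lower and 48 higher. After quantile normalization 315 were higher. Between U87MG and U251, 7829 of 16098 genes were called in the main fit. Without the filter it was 4286 of 27973 (2430 lower, 1856 higher), and at a mean RPKM of at least 5 it was 4791 of 9314 (2536 and 2255). Without the arm term it was 4442 of 16098 (2482 and 1960). Of the members, 2 of 8 were then called between the lines without the filter, 1 of 4 at a mean RPKM of at least 5, where only 4 members were tested, and 1 of 8 without the arm term. Without the filter the prior degrees of freedom fell to 2.24, against 6.74, and the cause of this and the other changes was not tested. Leaving out a line leaves no residual degree of freedom, so the count of calls was not run without one. For CASP9, with 95 to 169 reads per library, depth limits what can be told apart.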

Other observations

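CASP4 and CASP1, both inflammatory caspases, were set against each other after their values were seen, with no test. CASP4, per length, was 24.9 times CASP1 in U87MG KD against 7.30 times in U87MG WT, and 22.2 times in U251 KD against 4.81 times in U251 WT. In both lines the KD library thus held more CASP4 relative to CASP1.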
